A study of Mus musculus with 17 samples.

Results

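The genes described here are those whose bodies carried the most total RNA polymerase II (Pol II) in control fibroblasts. They are the 5432 genes, 15.02% of the 36172 genes left after exact repeated rows were dropped, whose deposited total Pol II gene body signal was at least 60 in the SCR library. The study depleted RPAP1, a protein that associates with Pol II, in primary embryonic fibroblasts of C57Bl/6 mice and measured Pol II on chromatin by ChIP-seq. The tested cells carried the lentiviral hairpin shRPAP1 #5, and the control cells the non-targeting hairpin shSCR. Both were kept under puromycin, were collected at day 3 after infection, and were 3 lines pooled into 1 chromatin sample, immunoprecipitated with the N-20 antibody (sc-899x) to total Pol II. Each side is 1 library, so every difference below is a difference between 2 libraries, with no replicate check and no test between the conditions. The free-text description of the shRPAP1 sample names the SCR control, while its title, its treatment field and its hairpin field name the knockdown, and the group follows those 3 fields.

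Pol II is loaded at a promoter, usually pauses a short way into the gene, and is then released into the gene body, where it copies the full transcript. Polymerase over the body, away from the start, is therefore the part of the ChIP signal closest to productive elongation, and highly transcribed genes carry many polymerases at once. RPAP1 was identified by its association with Pol II, and its yeast counterpart Rba50 takes part in assembly of the polymerase. In an embryonic fibroblast the heavily transcribed genes typical of the cell type encode matrix proteins and the contractile actin cytoskeleton.

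Rpap1 itself is no member: its body held 14.3 in the shRPAP1 library and 14.3 in the SCR library, about 35.0 read equivalents in each, and since a hairpin acts on the messenger RNA this does not check the depletion. Of 13 fibroblast markers 10 were members, while 0 of the epithelial, endothelial, skeletal muscle, neural and pluripotency markers were. Of the 4 markers of macrophages and blood in the table only Cd68 was a member, at 108 in the shRPAP1 library and 259.8 in the SCR library. Signal over 1800 genes taken as background, of which 1760 are olfactory and vomeronasal receptors, averaged 12.5 in the shRPAP1 library and 7.25 in the SCR library. In the 40 other silent genes the means lay the other way round, at 11.7 in the shRPAP1 library and 14.6 in the SCR library. The scaling between the libraries is not given in the sources used here, so the levels below are differences in deposited signal, and each gene is also set against genes of like SCR signal, a comparison that a scaling factor does not change.

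Total Pol II was lower in the shRPAP1 library over 5211 of the 5432 members and higher over 194, with 27 equal. The median member held 54.65 in the shRPAP1 library and 95.8 in the SCR library, and the median log2 ratio of shRPAP1 over SCR was -0.85, a 1.80-fold lower signal, with quartiles at -1.16 and -0.59. A difference of at least 1.5-fold downward was seen in 4099 members (75.5%), and upward in 66 (1.22%). The signal was at least 2-fold lower in 1962 members. The members together held 49.7% of all gene body signal of the table in the shRPAP1 library, against 64.6% in the SCR library. The SCR value both chose the members and is the denominator of the ratio. Over all genes of the table with coverage in both libraries, members or not, the median log2 ratio was 0. With as many genes chosen by their Ser5P signal in SCR, the median ratio was -0.80. Just inside the threshold lie Gm26526, at 44.5 in the shRPAP1 library and 60 in the SCR library, Stx12, at 41.2 and 60.01 in that order, and Gm10356, at 0.25 and 60. Just outside lie Ubap1, at 37.65 in the shRPAP1 library and 59.98 in the SCR library, Rara, at 35.4 and 59.99, and A230065N10Rik, at 0.33 and 59.99.

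The more Pol II a gene body carried in SCR, the larger was the relative difference. Among members with at least 50 read equivalents in SCR, without mitochondrial genes and predicted names, the median log2 ratio was -0.64 for the 1032 genes between 60 and 80 in SCR, -0.87 for the 662 genes between 100 and 150, -1.10 for the 197 genes between 200 and 300, and -1.51 for the 16 genes at 1000 or more. All 16 of that uppermost class passed 1.5-fold, at a median of 721 in the shRPAP1 library and 1562 in the SCR library. Among the 50 genes between 500 and 1000 the median was -1.14, no further down than the -1.20 of the 129 genes between 300 and 500. With the mean over the 1800 background genes subtracted from each library, these 4 classes had medians of -0.97, -1.10, -1.23 and -1.54, a narrower spread. The class between 500 and 1000 then stood at -1.20, above the class between 200 and 300, whereas it lay below that class as deposited. Ranking the genes into 5 equal classes by SCR Ser5P, a signal that is no part of the ratio, gave medians of -0.61 in the lowest class (582 genes), -0.81 in the middle one (581 genes) and -1.08 in the highest (582 genes). By SCR signal, the share of genes at least 1.5-fold lower rose from 60.8% between 60 and 80 to 96.9% between 300 and 500. Counts of list members at least 1.5-fold lower therefore depend on the SCR signal of the list.

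**Figure D1:**
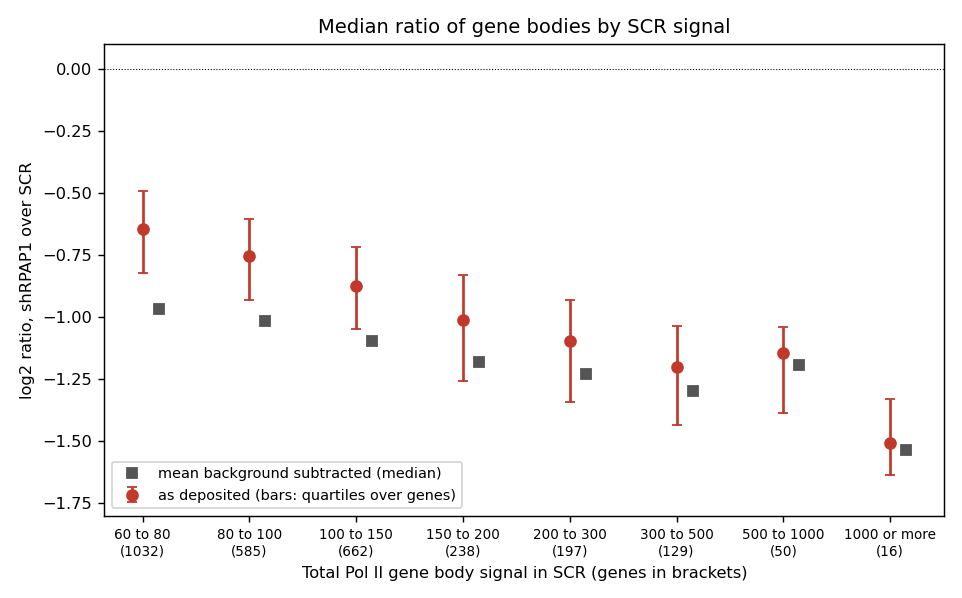
Median log2 ratio of total Pol II gene body signal, shRPAP1 over SCR (y axis), by class of SCR signal (x axis, deposited units, with the number of genes in brackets). Circles are values as deposited with quartiles over genes as bars, and squares are medians after subtraction of the mean background; the circles run from -0.64 at 60 to 80 to -1.51 at 1000 or more.

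The depth behind a gene sets what can be read from it. A read is taken as 40 bases of coverage, and a member body held a median of 54.9 read equivalents in the shRPAP1 library and 96.7 in the SCR library. At least 50 were present in SCR for 3322 members, of which 2575 (77.5%) were at least 1.5-fold lower and 16 (0.482%) higher. Those 16 are 8 mitochondrial genes, 5 predicted genes, Zfp934, the pseudogene Speer7-ps1 and Sfi1. For each member the relative ratio is its log2 ratio minus the running median over the members nearest in SCR signal, 200 on each side, so that 0 means a loss like that of its neighbours. In the 3322 well covered members the middle 50 percent of relative ratios lay between -0.16 and 0.19. Of these members 92 (2.77%) lay at least 1.5-fold below their neighbours and 102 (3.07%) at least 1.5-fold above. The 1758 members under 50 read equivalents, 937 of them with predicted names, spread far more widely, with quartiles of -0.73 and 0.29. Intervals given below are exact 95% counting intervals of the log2 ratio. They cover counting error only, since reads from PCR are not independent molecules, and take no account of variation between chromatin samples.

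**Figure D2:**
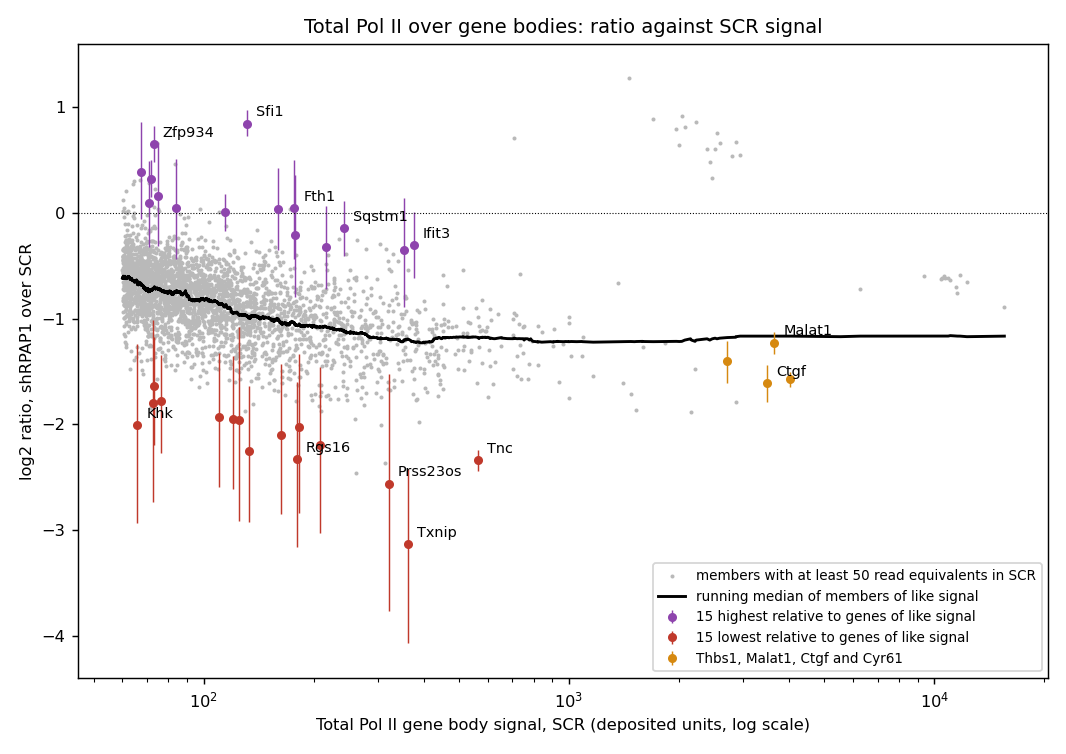
Log2 ratio of total Pol II gene body signal, shRPAP1 over SCR (y axis), against SCR signal (x axis, log scale) for the 3322 members with at least 50 read equivalents in SCR (grey); the black line is the running median of members of like signal. Coloured points are the 15 highest and 15 lowest named genes relative to genes of like signal and Thbs1, Malat1, Ctgf and Cyr61, with 95% counting intervals as bars; the grey points at the far right and those above 0 at high SCR signal are mainly mitochondrial and predicted genes.

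Thbs1, Malat1, Ctgf and Cyr61 were among the 5 genes with the most Pol II over their bodies by the naming rule. Thbs1, which encodes the matrix protein thrombospondin 1, held 1357 in the shRPAP1 library and 4029 in the SCR library, a log2 ratio of -1.57 (-1.64 to -1.50). Ctgf and Cyr61, secreted matricellular proteins and well known targets of the YAP and TEAD factors, held 1145 and 1025 in the shRPAP1 library, against 3493 and 2713 in the SCR library. Malat1, a nuclear long noncoding RNA, held 1558 in the shRPAP1 library and 3645 in the SCR library. All 4 lost more than 2-fold, and the interval of Malat1 (-1.33 to -1.12) held the median of its neighbours while those of Thbs1, Ctgf and Cyr61 lay below it. In Ser5P the values of Thbs1, Ctgf and Cyr61 relative to their neighbours were -0.10, -0.09 and 0.20.

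Txnip stood lowest among named, well covered members. It encodes the thioredoxin-interacting protein, which restrains glucose uptake, and its body held 41.0 in the shRPAP1 library and 363 in the SCR library, about 15.5 and 137 read equivalents. The signal was 8.78-fold lower (log2 ratio -3.13, -4.07 to -2.42), and the relative ratio was -1.94. Its relative Arrdc3, another alpha-arrestin, held 85.5 in the shRPAP1 library and 88.5 in the SCR library, 0.71 above its neighbours. Tnc, the gene of the matrix protein tenascin C, was by far the best covered of the lowest 15, with 1015 read equivalents in the shRPAP1 library and 5141 in the SCR library. Its signal was 111 in the shRPAP1 library and 564 in the SCR library (-2.34, -2.44 to -2.24), and its relative ratio was -1.16.

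The other genes of the lowest 15 had between 52.7 and 179.8 read equivalents in SCR, so their order is not resolved by their counting intervals. Rgs16, an inhibitor of G protein signalling, held 35.6 in the shRPAP1 library and 179.9 in the SCR library (5.01-fold lower), and Khk, ketohexokinase of fructose metabolism, held 16.2 and 65.9 in that order (4.02-fold lower). Sema7a, a membrane-anchored semaphorin that binds integrins, held 22.1 in the shRPAP1 library and 76.3 in the SCR library. Dnajb5, a co-chaperone of Hsp70, held 28.7 and 110, and Mxd3, a MYC network repressor, 44.45 and 182 in that order. Prss23os, Apol8, Snhg18, Arl2bp, Vps25, Ccdc85b, Prr7 and Plekhb1 complete the 15, with relative ratios between -1.37 and -0.93. Prss23os is by its name an opposite-strand transcript, so its reads may not be told apart from those of an overlapping gene. Gm10311, a predicted gene outside the naming rule, had the lowest ratio of all well covered members, at 2.80 in the shRPAP1 library and 106 in the SCR library, but its Ser5P signal was 2.80 in both libraries.

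Matrix glycoprotein genes lost more Pol II than genes of like signal. All 15 members among the matrix glycoprotein and elastic fibre genes were at least 1.5-fold lower, as were 92.9% of the genes in the class between 150 and 200 in SCR. Of the 15 members 14 lay below their neighbours. Their median body held 59.15 in the shRPAP1 library and 155 in the SCR library, and the median relative ratio was -0.34, where the median of all members is 0 by construction. The counting interval lay wholly below the like-signal median for 10 of the 15 and above it for 0, beside 7.62% and 9.59% of all members with a read number. Intervals narrow with depth, and all 15 are well covered. Among the 3322 well covered members the counts were 364 below and 448 above. Fn1, fibronectin, held 462 in the shRPAP1 library and 1405 in the SCR library (-1.60, -1.66 to -1.55). Fbn1, the main fibrillin of elastic microfibrils, held 59.15 and 155, and Ltbp2, a latent TGF-beta binding protein, 41.8 and 110.4 in that order. Spp1, which encodes osteopontin, was the exception above its neighbours at 349.8 in the shRPAP1 library and 702 in the SCR library, with an interval that held their median. The small leucine-rich proteoglycans, another matrix list, had a median relative ratio of -0.06 over 4 members, with the interval below the like-signal median for 1, Bgn, biglycan, at 80.7 in the shRPAP1 library and 223 in the SCR library.

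The collagens had the same direction and graded from -0.80 to 0.15 in relative ratio. Of 11 members 10 were at least 1.5-fold lower, beside 92.9% of the genes in the class between 150 and 200 in SCR. Of the 11 members 9 lay below their neighbours, and the median relative ratio was -0.27. The basement membrane chains Col4a1 and Col4a2, which share a bidirectional promoter, held 46.0 and 33.1 in the shRPAP1 library, against 145 and 102 in the SCR library. Col4a2 was the lowest collagen, with a relative ratio of -0.80. The fibrillar chains differed among themselves. Col5a1 and Col1a2 had relative ratios of -0.52 and -0.22, with intervals below the like-signal median. Col1a1 held 216 in the shRPAP1 library and 516 in the SCR library, and Col3a1 held 151 and 337 in that order; both intervals held the like-signal median. Col11a1, a minor fibrillar chain, lay 0.15 above its neighbours, at 49.85 in the shRPAP1 library and 73.9 in the SCR library.

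Enzymes that modify and cut collagen followed. Of 10 collagen modifying enzymes and chaperones 9 passed 1.5-fold downward, beside 77.8% of the genes in the class between 80 and 100 in SCR. Their median relative ratio was -0.34. Lox and Loxl2, which crosslink collagen, held 297.5 and 24.1 in the shRPAP1 library, against 1003 and 67.9 in the SCR library. Their intervals lay below the like-signal median, as did those of P4hb, the beta subunit of prolyl 4-hydroxylase, and Bmp1, which trims procollagen. P4ha1, the catalytic prolyl 4-hydroxylase subunit, lay 0.27 above its neighbours at 67.3 in the shRPAP1 library and 98.2 in the SCR library. Among 12 matrix proteases and inhibitors 11 were at least 1.5-fold lower, beside 89.3% of the genes between 100 and 150 in SCR. Their median relative ratio was -0.15. Timp1, an inhibitor of metalloproteinases, held 75.9 in the shRPAP1 library and 305 in the SCR library (-2.60 to -1.46), and Plau, urokinase, held 74.1 and 245. Timp2, of the same inhibitor family as Timp1, lay on the other side at 85.7 in the shRPAP1 library and 139.8 in the SCR library, 0.27 above its neighbours.

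All 33 members among the actin cytoskeleton and SRF target genes, of 34 listed, were at least 1.5-fold lower. So were 96.9% of the genes in the class between 300 and 500 in SCR, which holds the median of the list. SRF, with its MRTF cofactors, drives the genes of actin and of the proteins that bind it. The median body of the list held 143.9 in the shRPAP1 library and 329 in the SCR library, the median log2 ratio was -1.35 and the median relative ratio -0.23. The interval lay below the like-signal median for 13 genes and above it for 0. Tpm1, a tropomyosin, held 420.4 in the shRPAP1 library and 1531 in the SCR library (-1.86, -1.96 to -1.77). Vcl, vinculin, which ties actin to adhesions, held 178.8 and 599 (-1.74, -1.82 to -1.67), and the smooth muscle genes Actg2 and Cnn1 held 57.0 and 50.45 in the shRPAP1 library, against 209.7 and 167 in the SCR library. Actb, Actg1 and Cfl1, the cytoplasmic actins and cofilin, held 779, 386 and 193 in the shRPAP1 library, against 1829, 842 and 414 in the SCR library, and had relative ratios of -0.02, 0.10 and 0.12, with intervals that held the like-signal median. Other widely expressed members lay lower, among them Myl12b, a myosin light chain, at -0.62 and Flna, filamin A, at -0.26, both with intervals below the like-signal median.

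SRF binds a sequence called the CArG box, and the promoters of the list were searched for it on both strands. In RefSeq promoter windows of GRCm38.p6, from 250 bases before to 50 after the start, the box was present in 6 of the 29 actin list genes with a window (20.7%), against 2.18% of the 3307 members and 1.59% of the 27025 genes with a window. The 6 genes are Vcl, Srf, Lima1, Myl9, Cnn2 and Actg1, with a median relative ratio of -0.28, against -0.23 in the 23 without it. Above their neighbours lay 2 of the 6 and 5 of the 23. The difference between these sets of genes was not tested. A match is a description of the letters and not a mapped site. The windows of 2 of these genes with intervals below the like-signal median are shown with the CArG box in capitals. Vcl lies at chr14:20929148-20929447 on the plus strand, and its box starts 227 bases before the transcript start. Lima1, whose protein EPLIN crosslinks actin filaments, has its window at chr15:99820100-99820399 on the minus strand, with the box starting 47 bases before the start.
Vcl: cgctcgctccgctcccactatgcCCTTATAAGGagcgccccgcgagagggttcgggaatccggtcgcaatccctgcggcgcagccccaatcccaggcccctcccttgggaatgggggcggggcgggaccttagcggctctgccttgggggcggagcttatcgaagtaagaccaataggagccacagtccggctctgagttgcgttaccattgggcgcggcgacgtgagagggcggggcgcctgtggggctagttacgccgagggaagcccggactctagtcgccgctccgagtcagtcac
Lima1: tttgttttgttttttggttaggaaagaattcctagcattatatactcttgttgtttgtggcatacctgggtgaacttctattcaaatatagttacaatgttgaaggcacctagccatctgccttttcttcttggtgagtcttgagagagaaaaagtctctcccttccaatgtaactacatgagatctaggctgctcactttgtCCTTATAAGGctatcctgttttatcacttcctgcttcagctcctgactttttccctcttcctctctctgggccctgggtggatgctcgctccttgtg
The body of Lima1 held 47.0 in the shRPAP1 library and 113 in the SCR library (-1.26, -1.42 to -1.11), with a relative ratio of -0.39.

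Adhesion and growth signalling genes leaned the same way. All 16 focal adhesion and integrin members passed 1.5-fold downward, as did 89.3% of the genes in the class between 100 and 150 in SCR. The median relative ratio of the list was -0.18. The integrin chains Itga5 and Itgb1 held 142 and 147.8 in the shRPAP1 library, against 452 and 443 in the SCR library, and Cav1, the coat protein of caveolae, held 82.0 and 263 in that order. Cav2, its partner, lay 0.42 above its neighbours. Among 17 YAP and TEAD genes 16 were at least 1.5-fold lower, beside 89.3% of the genes between 100 and 150 in SCR. Of the 17 genes 14 lay below their neighbours in total Pol II (median -0.12). In Ser5P 10 lay below and 7 above. Wisp1, a secreted relative of Ctgf, held 113 in the shRPAP1 library and 384 in the SCR library. Of 12 growth factor receptors 10 passed 1.5-fold downward, beside 75.5% of all members, and the median relative ratio was -0.23. Fzd2 and Pdgfrb, receptors for WNT and PDGF, were lowest. Fzd2 rests on 10.9 read equivalents in the shRPAP1 library and 40.5 in the SCR library, and its Ser5P relative ratio was 0.14. In Ser5P the receptor list had a median relative ratio of -0.03.

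The TGF-beta list spanned both sides, with a median relative ratio of 0.07 over 20 members. Several secreted ligands and binding proteins lay low. Tgfb2 and Tgfb3 held 34.9 and 101 in the shRPAP1 library, against 89.98 and 320.4 in the SCR library, and Fst, follistatin, held 30.8 and 97.3 in that order. The Id genes, BMP-responsive inhibitors of differentiation, lay above their neighbours in total Pol II, while in Ser5P Id1, Id2 and Id3 had relative ratios of -0.29, 0.07 and 0.06. Id2 held 67.1 in the shRPAP1 library and 62.3 in the SCR library, and Id1 held 122 and 164. These values rest on about 13 read equivalents in SCR for Id2 and 14.8 for Id1, and the intervals of all 3 genes held the like-signal median. Grem1, a secreted BMP antagonist, held 123 in the shRPAP1 library and 158 in the SCR library, 0.65 above its neighbours (log2 ratio -0.37, -0.72 to -0.02).

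Cholesterol and fatty acid synthesis was the one metabolic list on the low side. All 12 members were at least 1.5-fold lower, beside 77.8% of the genes in the class between 80 and 100 in SCR. Of the 12 members 11 lay below their neighbours, with a median relative ratio of -0.23 and medians of 43.6 in the shRPAP1 library and 87.8 in the SCR library. Elovl1, which lengthens fatty acids, held 35.55 in the shRPAP1 library and 86.45 in the SCR library (-1.27, -2.18 to -0.42). Hmgcs1, an early enzyme of cholesterol synthesis, held 51.1 and 113.6 in that order (-1.15, -1.53 to -0.80). Sqle, squalene epoxidase, was the one member above its neighbours, at 56.15 in the shRPAP1 library and 95.01 in the SCR library. The interval lay below the like-signal median for 2 of the 12 members and above it for 0.

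**Figure D3:**
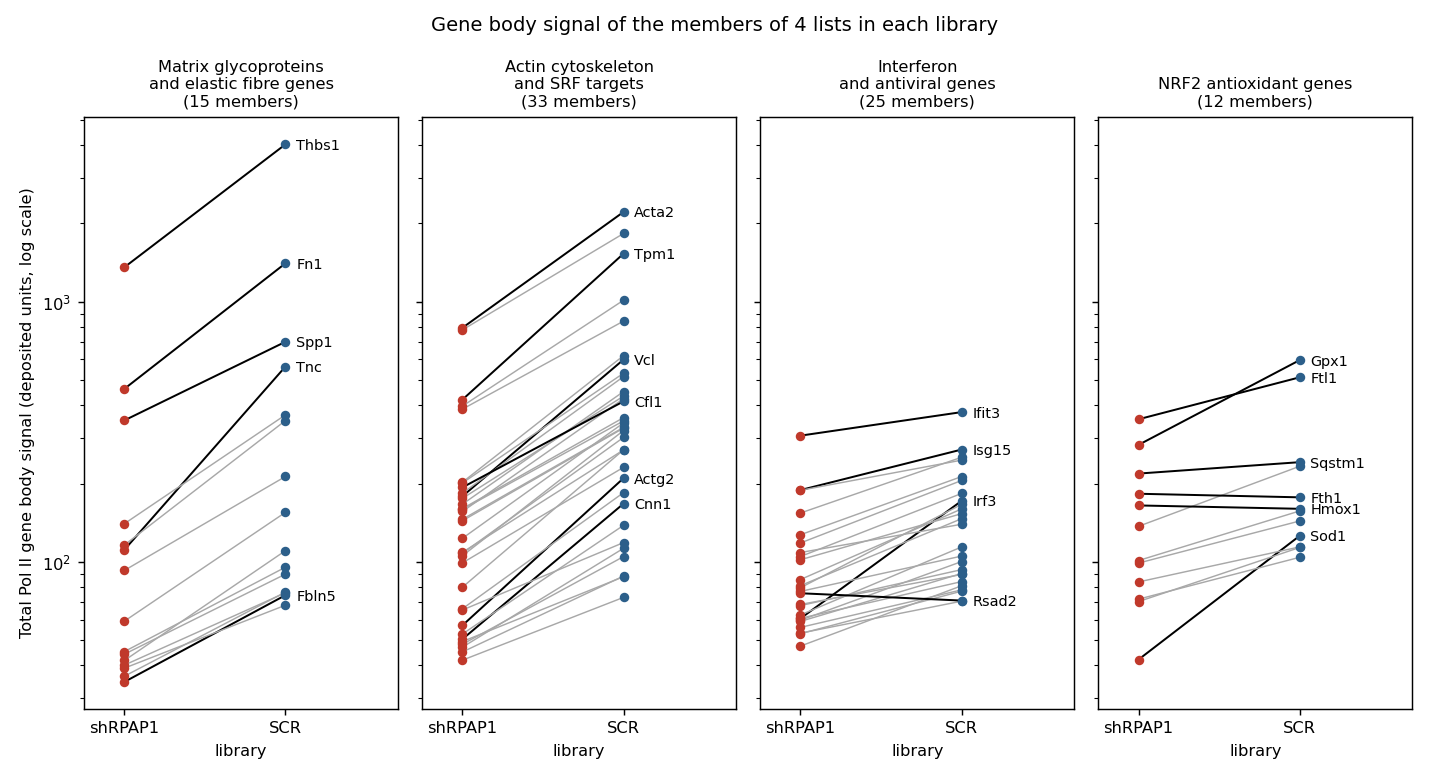
Total Pol II gene body signal (y axis, deposited units, log scale) of each member of 4 lists in the shRPAP1 library (left, red) and the SCR library (right, blue); lines join the same gene, and black lines are the labelled genes. The lines of the matrix and actin genes climb steeply towards SCR, that of Tnc most, while those of Rsad2, Fth1 and Hmox1 are close to level.

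At the opposite end, genes of the antioxidant response kept the most Pol II. NRF2, encoded by Nfe2l2, induces these genes under oxidative stress. Of the 12 members 5 were at least 1.5-fold lower, beside 92.9% of the genes between 150 and 200 in SCR. Of the 12 members 11 lay above their neighbours, and the median relative ratio was 0.41. The interval lay above the like-signal median for 8 and below it for 0. Fth1, the heavy chain of ferritin, which stores iron, held 183 in the shRPAP1 library and 177 in the SCR library (0.05, -0.43 to 0.51), and Hmox1, which degrades haem, held 165 and 159.9 (0.04, -0.35 to 0.43). Sqstm1, the autophagy receptor p62, held 218 and 242 in that order (-0.15, -0.40 to 0.11). These 3 genes lay 1.08, 1.05 and 0.96 above genes of like signal, although no increase over SCR was detectable at this depth. Nfe2l2 itself held 98.9 in the shRPAP1 library and 143.6 in the SCR library (0.46 above its neighbours). Prdx1 and Txnrd1, a peroxiredoxin and thioredoxin reductase, lay 0.34 and 0.37 above, and only Sod1, cytosolic superoxide dismutase, lay below its neighbours, at 42.1 and 125.9. In Ser5P all 12 lay above their neighbours, with a median of 0.47.

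Interferon and antiviral genes lay high as a group. Of the 25 members 13 were at least 1.5-fold lower, beside 89.3% of the genes between 100 and 150 in SCR. Of the 25 members 22 lay above their neighbours, and the median relative ratio was 0.28. Their median body held 77.0 in the shRPAP1 library and 139.5 in the SCR library. Ifit3, an RNA-binding antiviral protein, held 306 in the shRPAP1 library and 376 in the SCR library (-0.30, -0.61 to 0.01), and Rsad2, the enzyme viperin, held 75.7 and 71.0 (0.09, -0.32 to 0.49). They lay 0.92 and 0.82 above their neighbours. Ifi44, Mx2 and Ifit1, all interferon-induced, lay 0.61, 0.42 and 0.42 above, with intervals above the like-signal median. Irf9 held 118 in the shRPAP1 library and 205 in the SCR library, 0.28 above its neighbours, and Irf3, which acts before interferon is made, was lowest in the list at 60.6 in the shRPAP1 library and 172 in the SCR library.

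The interferon-stimulated response element, to which an interferon-activated complex that holds IRF9 binds, was searched as its core GAAANNGAAA on both strands of the same windows. It was present in 9 of the 18 interferon genes with a window (50.0%), against 3.39% of members and 3.49% of all genes with a window. The median relative ratio of the 9 was 0.33, against 0.28 in the other 9, with 9 of 9 above their neighbours among genes with the core and 6 of 9 among those without it. The difference between these 2 sets of genes was not tested. The windows of Ifit3 and Rsad2, the 2 highest in the list, are shown with the core in capitals, written as TTTCNNTTTC where it lies on the other strand. Ifit3 has its window at chr19:34583279-34583578 on the plus strand, with cores that start 156 and 122 bases before the start. That of Rsad2 is at chr12:26456403-26456702 on the minus strand, with its core starting 120 bases before the start.
Ifit3: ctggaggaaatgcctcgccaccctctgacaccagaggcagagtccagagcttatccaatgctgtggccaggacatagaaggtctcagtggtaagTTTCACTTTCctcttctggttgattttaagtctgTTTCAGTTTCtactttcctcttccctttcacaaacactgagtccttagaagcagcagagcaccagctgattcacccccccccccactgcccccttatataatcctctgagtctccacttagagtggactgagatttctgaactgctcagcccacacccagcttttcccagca
Rsad2: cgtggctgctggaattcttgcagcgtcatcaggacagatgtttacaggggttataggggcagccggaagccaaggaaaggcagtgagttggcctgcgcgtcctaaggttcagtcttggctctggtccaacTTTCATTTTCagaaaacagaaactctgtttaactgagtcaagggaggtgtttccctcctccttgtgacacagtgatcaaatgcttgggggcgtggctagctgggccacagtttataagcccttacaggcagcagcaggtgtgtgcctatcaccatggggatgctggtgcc
These promoters were chosen because they hold the motif, and of the 10 motifs searched only the CArG box and this core are described.

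Members of the unfolded protein response and of the integrated stress response were divided. Over 19 members 13 were at least 1.5-fold lower, beside 89.3% of the genes between 100 and 150 in SCR. The median relative ratio was 0.23, with intervals above the like-signal median for 7 and below it for 0. The targets and regulators of the ATF4 branch lay high. Chac1, a glutathione-degrading enzyme, held 122 in the shRPAP1 library and 92.9 in the SCR library, from about 27.1 read equivalents in SCR (0.39, -0.39 to 1.15). Ppp1r15a, which restores translation after stress as GADD34, held 127.8 and 133.8, and Slc3a2, an amino acid transporter chain, 98.8 and 142.8. The chaperones of the endoplasmic reticulum spread over both sides. Hspa5, the chaperone BiP, held 203.6 in the shRPAP1 library and 433.5 in the SCR library, 0.09 above its neighbours. Canx, calnexin, lay 0.23 above with an interval above the like-signal median, and Calr, calreticulin, was the lowest of the list at -0.25, with an interval that held that median. Aminoacyl-tRNA synthetases, several of which ATF4 induces, had a median of 0.19 over 12 members, with 8 above their neighbours and 4 below. Of the 12 members 7 were at least 1.5-fold lower, beside 77.8% of the genes between 80 and 100 in SCR. Tars was lowest, with a relative ratio of -0.30. Rars, for arginine, was highest at 63.4 in the shRPAP1 library and 71.6 in the SCR library (-0.17, -0.48 to 0.13).

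Lysosome genes had a median relative ratio of 0.16 over 19 members, with 12 at least 1.5-fold lower. Between 80 and 100 in SCR 77.8% of genes were that much lower. Ctsl, the protease cathepsin L, held 86.95 in the shRPAP1 library and 84.3 in the SCR library, 0.78 above its neighbours, and Ctsb held 71.85 and 98.5, 0.35 above. Lgals3, galectin 3, which marks damaged lysosomes, held 76.8 and 74.9 and stood apart in the galectin, annexin and S100 list, whose median was -0.10. Annexins 6 and 8 lay lowest there, at 33.4 and 25.3 in the shRPAP1 library, against 92.25 and 61.3 in the SCR library.

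Targets of p53 spanned both sides, with a median relative ratio of 0.10 over 22 members, 20 of them at least 1.5-fold lower. Between 150 and 200 in SCR 92.9% of genes were that much lower. Gadd45a, a stress-induced growth arrest gene, held 277 in the shRPAP1 library and 354 in the SCR library (-0.35, -0.89 to 0.14), 0.85 above its neighbours. Mdm2, the ubiquitin ligase of p53, held 286 and 464 in that order, 0.48 above, with the interval above the like-signal median. Cdkn1a, the cell cycle inhibitor p21, lay 0.34 above. Fas and Phlda3, which act in cell death and in AKT inhibition, had relative ratios of -0.40 and -0.55.

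Immediate early genes, which respond to growth factors within minutes, were lower by at least 1.5-fold in 23 of 24 members. Between 300 and 500 in SCR 96.9% of genes were that much lower. The members lay with their neighbours (median relative ratio -0.02). Nr4a1, an orphan nuclear receptor, was the lowest well covered one at 58.4 in the shRPAP1 library and 207 in the SCR library, and Junb, a subunit of AP-1, the highest at 223 and 323 in that order. Egr1 held 506 and 999, 0.24 above. Chemokine, cytokine and NF-kB genes were likewise mixed (18 members, median -0.08). Ptgs2, the inducible cyclooxygenase, held 450.04 in the shRPAP1 library and 1476 in the SCR library, with a relative ratio of -0.50, whereas Cxcl12, a chemokine of stromal cells, held 82.05 and 122, 0.37 above.

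Genes for basic cell functions lay close to genes of like signal. Cytosolic ribosomal protein genes had a median relative ratio of 0.06 over 79 members. Of these members 73 were at least 1.5-fold lower, beside 92.9% of the genes between 150 and 200 in SCR. Translation factors had a median relative ratio of 0.05 over 30 members and proteasome subunits 0.00 over 26. Nuclear genes of oxidative phosphorylation had 0.07 over 37, and mitochondrial ribosomal proteins 0.03 over 23. Splicing factors stood a little higher at 0.14, with 47 of 58 members above their neighbours. Srsf2, an SR protein, held 136 in the shRPAP1 library and 179 in the SCR library, 0.66 above. Glycolysis genes had a median of 0.15 over 10 members, with Gapdh at 203.9 and 356.7, and tubulin and intermediate filament genes 0.30 over 10 members, although in Ser5P that list stood at -0.04. The genes that act on Pol II itself did not stand apart: pausing and elongation factors had a median of 0.04 over 20 members and subunits of RNA polymerases and Mediator 0.02 over 16. Cdk9, the kinase that releases paused Pol II, held 49.1 in the shRPAP1 library and 86.0 in the SCR library. Replication-dependent histone genes had a median of -0.12 over 62 members, but only 5 of these short genes reached 50 read equivalents, and set against genes of like length instead of like signal the median was 0.39.

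**Figure D4:**
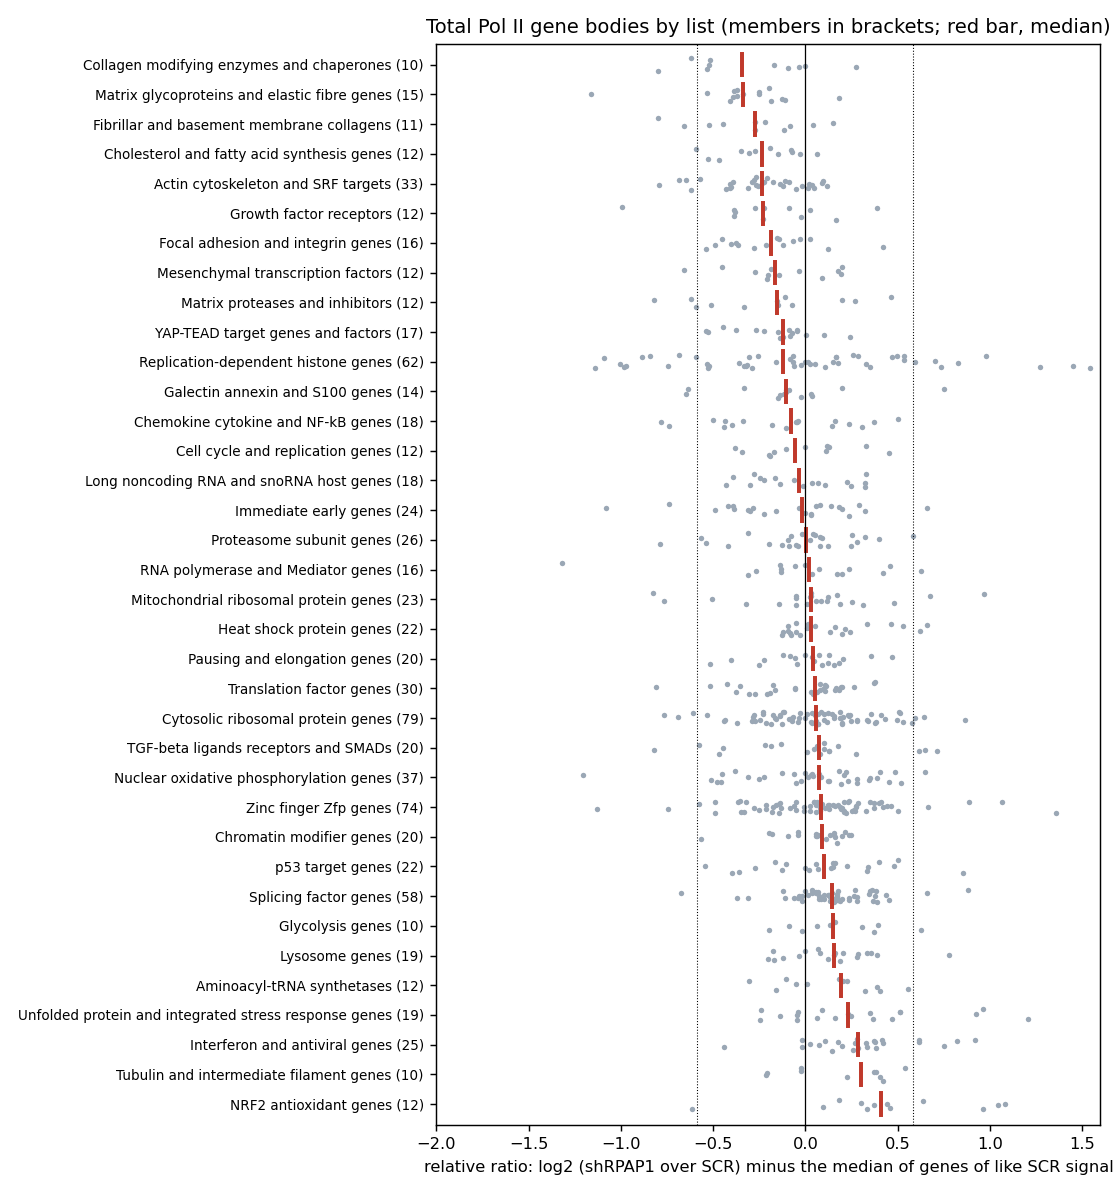
Relative ratio of total Pol II gene body signal (x axis, log2 ratio of shRPAP1 over SCR minus the median of genes of like SCR signal) for the members of the 36 lists with at least 5 members; grey points are genes, red bars medians, and dotted lines mark 1.5-fold. The matrix lists are at the top with medians near -0.34 and the NRF2 list at the bottom with 0.41; 11 replication-dependent histone genes lie beyond the axis.

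The highest 15 named members hold other genes besides stress and interferon genes. Sfi1, a centrosome protein, held 237 in the shRPAP1 library and 132 in the SCR library (0.85, 0.73 to 0.97), Zfp934 held 115 and 73.0 (0.65, 0.48 to 0.82), and Ide, the insulin-degrading enzyme, 89.9 and 71.7 (0.33, 0.15 to 0.50). Sfi1, the zinc finger genes Zfp934, Zfp640 and Zfp125, and the prolactin family gene Prl2c3 have near-identical copies or relatives in the mouse genome, and how reads of such copies were placed is not given in the sources used here, so their values are uncertain. Btg1, an antiproliferative factor, held 173 in the shRPAP1 library and 216 in the SCR library (-0.32, -0.72 to 0.07). The antisense transcript N4bp2os completes the 15, and its reads cannot be told apart from those of the overlapping gene.

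The same genes were measured in the Ser5P libraries, made with an antibody to Pol II phosphorylated at serine 5, also from 3 pooled lines a side. These libraries came from chromatin of the same pools as those of total Pol II, so they are no independent repeat. Over the members the Ser5P body signal was at least 1.5-fold lower in 4267 (78.6%) and higher in 175 (3.22%). Each relative ratio was taken against genes of like SCR signal with the same antibody, total Pol II or Ser5P. The 2 relative ratios had a Spearman rho of 0.53 over 3322 well covered members, which share their position and length between both readouts. Of the 92 members at least 1.5-fold below their neighbours in total Pol II, 81 were below 0 in Ser5P (50.1% of all well covered members were) and 27 were 1.5-fold below (2.83%). Of the 102 at least 1.5-fold above, 92 were above 0 (49.7%) and 62 were 1.5-fold above (3.55%). Txnip held 83.2 in the shRPAP1 library and 828 in the SCR library with Ser5P, and Rgs16 held 59.9 and 475.6, relative ratios of -2.04 and -1.71. Hmox1, Fth1, Ifit3 and Rsad2 lay 1.29, 1.11, 1.20 and 1.37 above. Vps25, Ccdc85b, Zfp934 and Ide differed between the antibodies. Vps25 and Ccdc85b, of the lowest 15, had Ser5P relative ratios of 0.14 and 0.44, and Zfp934 and Ide, of the highest 15, of -0.25 and 0.03.

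**Figure D5:**
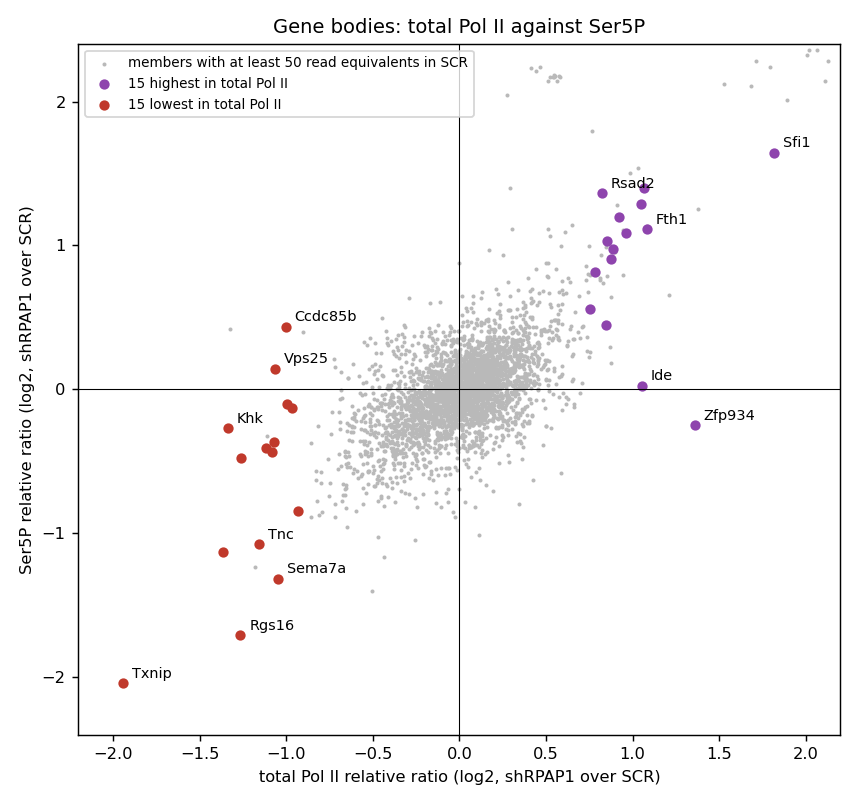
Relative ratio of total Pol II (x axis) against that of Ser5P (y axis) for the 3322 well covered members (grey). Both are log2 ratios of shRPAP1 over SCR minus the median of genes of like SCR signal with the same antibody. The 15 highest and 15 lowest named members in total Pol II are coloured; 13 of the lowest 15 lie below 0 in Ser5P and 14 of the highest 15 above 0, and 8 points lie beyond the axes.

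Promoter values of the same libraries are set beside those of the bodies. Txnip held 364 at its promoter in the shRPAP1 library and 2259 in the SCR library, and Tnc held 313 and 1213 in that order. Hmox1 and Fth1 held 603 and 592 at their promoters in the shRPAP1 library, against 867 and 1064 in the SCR library, lower at the promoter than in SCR. The median log2 ratio at the promoters of all members was -1.04, and at those of the actin, matrix glycoprotein, interferon and NRF2 lists -1.42, -1.39, -0.76 and -0.84. The order of the lists at promoters was not that of the bodies. Promoter ratios were not set against genes of like signal, so the body values beside them here are plain median log2 ratios too. The unfolded protein and integrated stress list, at -0.75 over its bodies (relative ratio 0.23), had the lowest promoter median of the 38 lists, -1.62. Splicing factors, at -0.82 over their bodies (relative ratio 0.14), had -1.21.

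Gene length did not order the relative ratios. Across 5 equal classes of the well covered members by length, with median lengths of 5100 to 89353 bases, the median relative ratio stayed between 0.02 and 0.05. The shortest class had the larger plain loss (-0.98, against -0.74 in the longest), but it also had a median SCR signal of 171, against 81.1 in the longest. The 26 named genes with a single exon had a median relative ratio of 0.18, against 0.02 in 2880 genes with several exons. Itpripl2, Zbed6 and Junb were the highest single-exon genes, and Kctd11 the lowest at 86.45 in the shRPAP1 library and 271 in the SCR library.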

How the data were processed

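Total Pol II and Ser5P ChIP-seq signal was analysed for 1 shRPAP1 and 1 SCR library with each antibody. The authors deposited a signal per gene for its promoter and its body, per the file headers, and it behaves as base coverage per length. Build GRCm38 (mm10) and the tools MACS2 2.0.10.20130712, bedtools 2.23.0, SAMtools 0.1.16 and FastQC are named by the submitters' processing notes. Aligner, read filters, input correction and scaling: not given in the sources used here. The RNA-seq samples and input chromatin were not used here.

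Of 36230 rows 58 exact repeats were dropped. To each value 0.33, the 5th percentile over all bodies, was added before log2 ratios were formed. Read equivalents of 40 bases were worked out from the floor of the values and gene length. The constants behind them (a factor of 238 and a body that starts about 302 bases into the gene) rest on 124 genes left of 4904 after trimming of misfits, so read numbers and intervals are approximate. Length is the smaller of the RefSeq (GRCm38.p6) and GENCODE vM21 spans. It was missing for 338 members, and the spans differed over 1.5-fold in 557 of 4468 members with both. An annotated span that is too long makes an interval too narrow. Of the 5432 members 5080 have a read number. Promoter sequences are RefSeq's, 1 window a gene (the most upstream of several), and were matched for 3307 members.

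The members, the 38 gene lists and the rules were chosen with earlier results of these data known. Named genes are Rpap1, the 15 lowest and 15 highest relative ratios among members with 50 read equivalents in SCR (without predicted, receptor, small RNA, pseudogene and mitochondrial genes), the 5 highest in SCR, and the 2 lowest and 2 highest of each list. Other list genes were named after their values were seen. Some genes the rule names are not reported here. Chosen after the data were seen were also the corrections to list membership, the silent genes besides receptors, the signal classes, the comparison of intervals with the like-signal median, the single-exon comparison, the motifs and the promoters shown. An earlier set of motifs and promoters without matches was set aside. Lists are described by counts and medians. With 1 library a side no test between the conditions was made. The steps were tested on simulated data, and Python 3.11.15, pandas 2.3.3, numpy 2.4.6, scipy 1.17.1 and matplotlib 3.10.9 were used.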

Additional observations from a re-analysis of the deposited data

How the results depend on the processing

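The size of the common difference depends on scaling, background and the choice of genes. The median log2 ratio of members, -0.85 as reported, was -1.63 with background genes set equal, -1.10 with mean background subtracted, -0.81 with a pseudocount 10 times larger, -0.63 and -1.06 with thresholds of 30 and 120 in SCR, -0.80 for genes chosen by Ser5P, -0.83 without predicted names and -0.81 with at least 50 read equivalents in SCR (the last chosen after seeing the data). The count of members lower by 1.5-fold, 4099 as reported, was 6278 of 11668 and 1620 of 1849 with thresholds of 30 and 120, and 2575 of 3322 with 50 read equivalents. The count of members higher by 1.5-fold, 66 as reported, was 6 with background genes set equal, 251 and 30 with thresholds of 30 and 120, 179 for genes chosen by Ser5P, 21 without predicted names and 16 with 50 read equivalents. The median of ratios over genes with coverage in both libraries was already 0, so setting it to 1 changed nothing.

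Relative ratios do not change with scaling. Of 1300 values of named genes under 8 other settings 35 moved by more than their interval and 0 reversed. Of 286 list medians 11 moved and 1 reversed, that of the Zfp genes, at -0.051 over 9 genes with a threshold of 120. A reversal was counted only for genes at least 1.5-fold from their neighbours and for lists whose interval of the median excluded 0. Other changes of sign were not counted as reversals, among them that of the histone list against genes of like length. Against genes of like length, not signal, 8 of 36 list medians moved. There the actin, collagen and matrix glycoprotein lists stood at -0.52, -0.56 and -0.47, and the interferon and NRF2 lists at 0.18 and 0.26. No paired analysis was possible because each side is 1 library. For the same reason no library could be left out. Short genes and members under 50 read equivalents are limited by depth.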
